A study of Mus musculus with 4 samples.

Results

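Mitochondrial tRNA fragments are short RNAs cut from the transfer RNAs that the mitochondrial genome encodes. They were studied here in small RNA sequencing libraries of mouse sperm as the distinct sequences of 18 nt or longer whose annotation names nothing but a mitochondrial tRNA. A total of 1299 such sequences were found among 1442059 distinct sequences of that length. The label comes from any of the files, because the file of Mdd replicate 1 does not use it, and the reads of each sequence were then taken in all 4 libraries.

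The study compared 2 libraries of the Mdd group with 2 of the Control group, all from mice labelled C57BL. Mdd mice were given unpredictable stress every day, with stressors such as a tilted or wet cage, restraint and isolation, to obtain depressive-like males. Control mice were left alone apart from feeding and cleaning, and the question was whether the short non-coding RNAs of sperm change with the stress. The tissue fields name testis and testicular cells, whereas the extraction protocol speaks of sperm and of RNA of 18 to 40 nt. Age, the number of mice behind a library and pooling are not stated in the labels. They do not say either whether replicates come from separate animals. A p-value therefore measures just the spread of these libraries, which may be technical.

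Mitochondrial tRNAs read the codons of the messages for respiratory chain subunits inside the organelle. They are copied from both strands of the circular genome within long transcripts, cut out by RNase P at the 5′ end and by ELAC2 at the 3′ end, and completed by TRNT1, which adds the bases CCA. Mature sperm are rich in fragments of tRNAs, and nucleases that cut the anticodon loop are a well known source of such fragments.

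Every one of the 1299 members matched exactly 1 of the 22 mitochondrial tRNA genes of the reference in the sense direction, and 21 of those genes had members. Sequences of the tRNAs on which the results turn are printed 5′ to 3′ as DNA letters, from GENCODE M21 transcripts on GRCm38. The most read fragment of each is in capitals. Lysine tRNA mt-Tk lies at chrM:7700-7764 on the plus strand, asparagine tRNA mt-Tn at chrM:5089-5159 and alanine tRNA mt-Ta at chrM:5018-5086, both on the minus strand. Valine tRNA mt-Tv is at chrM:1025-1093, methionine tRNA mt-Tm at chrM:3845-3913, tryptophan tRNA mt-Tw at chrM:4950-5016 and histidine tRNA mt-Th at chrM:11546-11612, all on the plus strand.
mt-Tk: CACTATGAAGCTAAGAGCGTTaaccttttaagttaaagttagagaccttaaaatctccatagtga
mt-Tn: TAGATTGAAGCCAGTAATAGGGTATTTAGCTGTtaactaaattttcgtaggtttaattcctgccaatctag
mt-Ta: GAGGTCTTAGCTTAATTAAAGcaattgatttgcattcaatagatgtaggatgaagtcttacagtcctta
mt-Tv: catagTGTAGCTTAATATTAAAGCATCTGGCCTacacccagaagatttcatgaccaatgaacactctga
mt-Tm: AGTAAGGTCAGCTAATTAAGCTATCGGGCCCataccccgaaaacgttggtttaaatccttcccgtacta
mt-Tw: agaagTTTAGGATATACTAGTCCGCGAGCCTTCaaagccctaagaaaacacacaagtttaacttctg
mt-Th: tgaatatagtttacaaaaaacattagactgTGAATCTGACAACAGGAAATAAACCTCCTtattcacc
In mt-Tk, mt-Tn, mt-Ta and mt-Tm the capitals begin at base 1, and in mt-Tv and mt-Tw at base 6. They stop before or inside the anticodon loop, whereas those of mt-Th begin inside the loop and run towards the 3′ end.

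The libraries held 23748630 and 23806805 reads of 18 nt or longer in Mdd replicates 1 and 2, against 9706895 and 16763277 in Control replicates 1 and 2. The 3 germ line miRNAs checked, miR-34b, miR-34c and miR-449a, were present in every library. In reads per 1000000 reads of 18 nt or longer (RPM), they summed to 2155 and 835 RPM in Mdd and 1656 and 1623 RPM in Control. Control replicate 2 stood apart in markers of other cells. Its 3 striated muscle miRNAs summed to 1027 RPM against at most 28.5 RPM in each other library, and its endothelial marker miR-126a to 209.6 RPM against at most 30.3 RPM. Its 5 epithelial miRNAs summed to 272 RPM, against 61.1 to 67.6 RPM elsewhere. The 3 erythroid miRNAs summed to 499 and 198 RPM in Mdd and to 343 and 89.9 RPM in Control, with miR-144 at 0 reads in both Mdd libraries and at 1 and 4 reads in Control. The 3 leukocyte miRNAs summed to 2.99 and 0.882 RPM in Mdd and to 4.84 and 13.1 RPM in Control, again highest in Control replicate 2. Reads of 15 to 17 nt, left out by the length rule together with 290 shorter mitochondrial tRNA sequences, were 1.18% and 1.27% of all Mdd reads and 24.4% and 26.95% of all Control reads.

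Mitochondrial tRNA fragments made up a smaller part of both Mdd libraries than of both Control libraries. They had 90095 and 47394 reads in Mdd replicates 1 and 2, against 49867 and 86443 reads in Control replicates 1 and 2. As a share of reads of 18 nt or longer this was 0.379% (95% Wilson interval 0.377 to 0.382%) and 0.199% (0.197 to 0.201%) in Mdd, against 0.514% (0.509 to 0.518%) and 0.516% (0.512 to 0.519%) in Control. These intervals cover counting error only, since reads without molecular identifiers are not independent molecules. The groups did not overlap, the Control libraries lay close together, and Mdd replicate 2 was the lowest of the 4.

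Expressed as a level, the fragments averaged 2892 ± 1275 RPM in Mdd and 5147 ± 13.7 RPM in Control (SD, n = 2 each), a ratio of 0.562. The two-sided exact permutation p was 0.333, the smallest that 2 libraries against 2 allow, so the design cannot take this difference past a threshold of 0.05. The difference in share was -0.225 percentage points with all libraries and also without Control replicate 2, the library with the high muscle and endothelial markers. It was -0.135 without Mdd replicate 2 and -0.316 without Mdd replicate 1. With reads of 15 to 17 nt counted too, the shares were 0.375% and 0.197% in Mdd, against 0.418% and 0.433% in Control, a difference of -0.140. In bulk libraries such as these, fewer cells of a kind and less RNA per cell cannot be told apart.

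Other mitochondrial RNA did not split the groups in the same way. Mitochondrial rRNA stood at 93627 and 39246 RPM in Mdd, against 96270 and 47056 RPM in Control, so the groups overlapped. Within each replicate number Mdd lay below Control, though the labels do not say that equal numbers belong together. For each 1000 mitochondrial rRNA reads there were 40.5 and 50.7 mitochondrial tRNA reads in Mdd, against 53.4 and 109.6 in Control (exact permutation p = 0.333, the smallest possible). For each 1000 nuclear tRNA reads there were 16.6 and 10.3 in Mdd, against 23.8 and 19.4 in Control (exact permutation p = 0.333). The Mdd values were the lower ones against both denominators, mitochondrial rRNA and nuclear tRNA. Ratios to piRNA or miRNA reads were not computed. The piRNA class was itself lower in both Mdd libraries, at 21.9% and 16.7% of Mdd reads, against 25.6% and 24.1% of Control reads. The miRNA class overlapped, at 0.838% and 0.395% of Mdd reads, against 0.741% and 1.57% of Control reads. Nuclear rRNA, which enters the denominator of every RPM value, took 23.2% and 37.2% of Mdd reads and 20.9% and 24.3% of Control reads, and its part in the lower mitochondrial tRNA share was not tested.

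**Figure D1:**
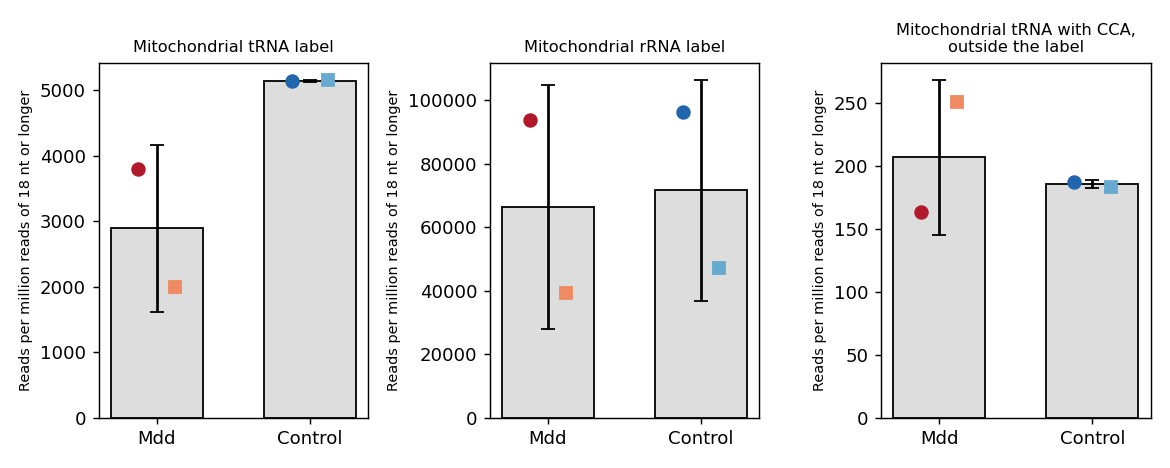
Levels of mitochondrial tRNA fragments, mitochondrial rRNA fragments and mitochondrial tRNA reads outside the label that end in 1 or more bases of the added CCA, in reads per 1000000 reads of 18 nt or longer, for Mdd and Control libraries. Points are libraries (circle replicate 1, square replicate 2), bars are means and error bars are SD (n = 2 each). Labelled mitochondrial tRNA lies at 3794 and 1991 RPM in Mdd and 5137 and 5157 RPM in Control, while the other 2 measures overlap between groups.

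The fragments were concentrated in few sequences. In all 4 libraries 186 of the 1299 members were detected, and these carried 94.7% and 88.0% of the mitochondrial tRNA reads in Mdd and 91.0% and 88.7% in Control. A further 729 members were seen in 1 library only and held 2.54% of the reads. Mdd replicate 1 had reads of 324 members and Mdd replicate 2 of 663, against 584 and 800 in Control replicates 1 and 2. Because a member must carry the label in a file other than that of Mdd replicate 1, sequences seen there alone cannot be members, and its number is a lower bound. The 12 most read sequences together took 60.8% and 54.7% of the mitochondrial tRNA reads in Mdd and 56.1% and 50.1% in Control.

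Lengths fell into separate peaks that recurred in every library. Fragments of 21 to 22 nt held 29.1% and 25.5% of all mitochondrial tRNA reads in Mdd and 24.2% and 19.97% in Control. Those of 27 nt made up 9.96% and 9.45% in Mdd and 8.91% and 8.97% in Control. Both of these peaks were higher in the Mdd libraries, without overlap, and mt-Tk was their leading source.

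At 29 nt stood 9.31% and 9.65% of the reads in Mdd and 7.30% and 11.8% in Control, and at 33 to 34 nt 17.9% and 16.1% in Mdd and 20.3% and 16.8% in Control. mt-Tn led both peaks, with 76.3% to 88.2% of the reads of 33 and of 34 nt in each library. Fragments of 35 to 45 nt held 4.35% and 5.27% in Mdd and 9.09% and 2.34% in Control, with a small peak at 43 nt led by glutamine tRNA mt-Tq. Control values enclosed the Mdd values for the 29 nt peak and for the long fragments. Mean length was 26.6 and 26.9 nt in Mdd and 27.4 and 26.6 nt in Control, a difference of -0.29 nt (exact permutation p = 0.667).

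**Figure D2:**
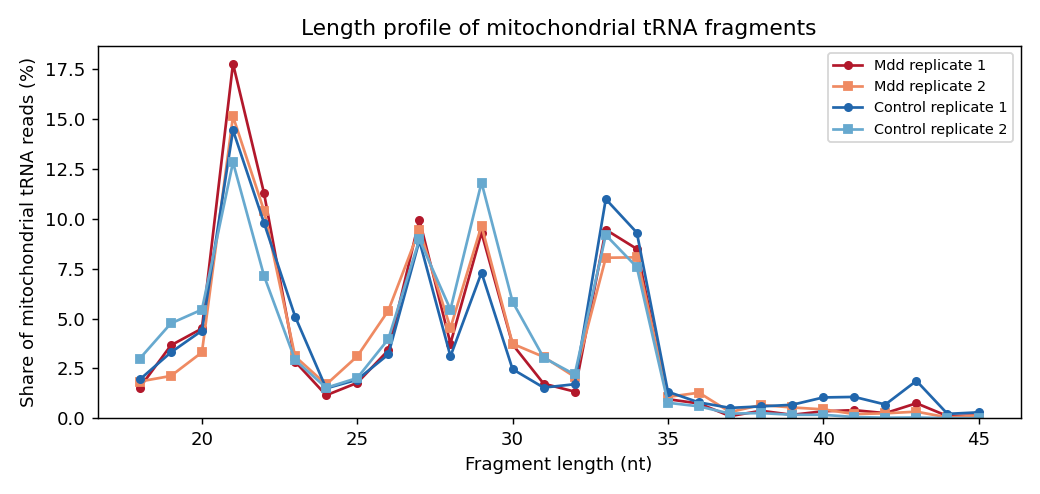
Share of mitochondrial tRNA reads at each fragment length from 18 to 45 nt in each library (Mdd in red tones, Control in blue tones). Peaks at 21 to 22, 27, 29 and 33 to 34 nt recur in all 4 libraries, the first at 29.1% and 25.5% in Mdd and 24.2% and 19.97% in Control.

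Most fragments came from the 5′ part of a tRNA. Reads that began within 1 nt of the first base made up 75.3% and 72.0% in Mdd and 80.9% and 68.2% in Control. Internal fragments, which touch neither end, made up 24.7% and 27.4% in Mdd and 18.9% and 31.6% in Control. Labelled fragments that ended within 1 nt of the last base encoded by the gene made up 0.00777% and 0.603% in Mdd and 0.140% and 0.219% in Control. Each of these 3 shares overlapped between the groups (exact permutation p = 1 for each), and for the 5′ and internal shares the 2 Control libraries differed more from each other than the group means did. The label leaves out the reads that reach the added CCA. With all exact matches to the 22 genes counted, the 3′ share was 4.12% and 11.7% in Mdd, against 3.66% and 3.65% in Control, without overlap (exact permutation p = 0.333, the smallest possible). In level, however, the reads that reach the CCA overlapped, at 164 and 251 RPM in Mdd, against 188 and 184 RPM in Control. The higher share in Mdd replicate 1 thus stood beside the lowest such level.

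The 5′ fragments stopped at 2 places. Those ending before the anticodon loop took 39.1% and 36.03% of the reads in Mdd and 39.5% and 35.9% in Control, and those ending inside the loop 32.1% and 32.3% in Mdd and 32.7% and 30.1% in Control. Both shares lay within 4 percentage points over all 4 libraries. Only 4.09% and 3.67% in Mdd and 8.76% and 2.19% in Control ran past the loop. With 5′ and internal fragments together, and leaving out threonine tRNA mt-Tt, whose anticodon was not located with certainty, 45.1% and 42.3% of the reads in Mdd and 38.9% and 43.98% in Control had their last base in the anticodon. The loops of mt-Tw and of a serine tRNA, mt-Ts2, rest on only 3 and 2 stem pairs, and both genes stayed in these shares.

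**Figure D3:**
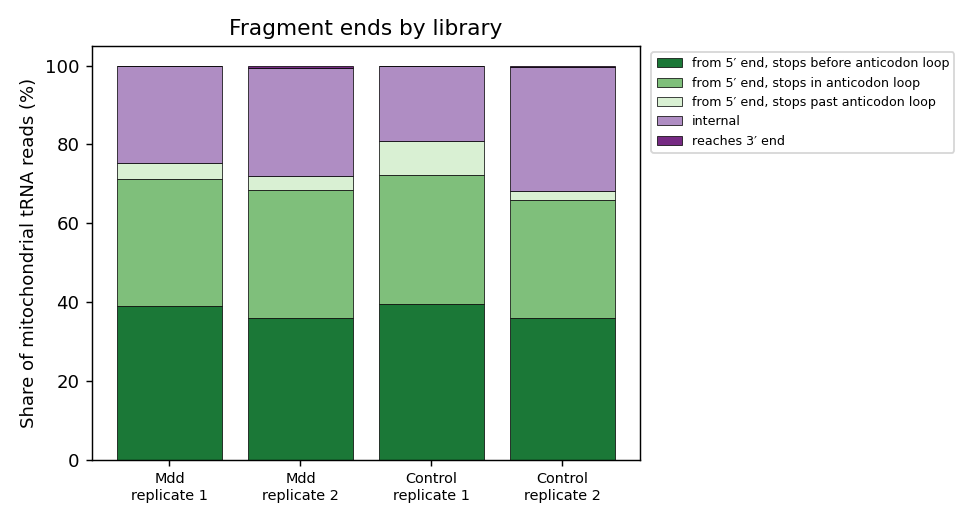
Share of mitochondrial tRNA reads by fragment ends in each library. Stacked colours are fragments from the 5′ end that stop before, in or past the anticodon loop, internal fragments and fragments that end within 1 nt of the 3′ end of the gene. 5′ fragments stopping before the loop hold 39.1% and 36.03% in Mdd and 39.5% and 35.9% in Control.

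mt-Tk, the tRNA for lysine, gave the most fragments on average. It stood at 1359 and 697 RPM in Mdd, against 1524 and 1014 RPM in Control, and the groups overlapped. Its log2 fold change in edgeR's quasi-likelihood test over 597 annotation names was 0.09 (SE 0.63, adjusted p = 0.995). Counts were scaled by TMM, and the median name then lay at 0.00. Scaled by library size alone, the sign of the mt-Tk change turned, to -0.27. Within the mitochondrial tRNA reads, mt-Tk took 35.8% and 35.0% in Mdd, against 29.7% and 19.7% in Control, a share that was higher in both Mdd libraries.

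Nearly all mt-Tk fragments began at base 1, at 96.7% to 97.8% of its reads in each library. They stopped mainly at base 21 (37.7% and 35.7% in Mdd, 32.3% and 31.2% in Control), base 22 (24.4% and 21.3% in Mdd, 19.7% and 16.01% in Control) and base 27 (20.9% and 21.1% in Mdd, 23.1% and 28.3% in Control). Base 27 is the first of the TTT anticodon, which lies at bases 27 to 29 of the printed sequence, while bases 21 and 22 precede the loop. Stops at bases 21 and 22 were thus higher, and stops at base 27 lower, in both Mdd libraries, with no test beyond the lack of overlap.

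The most read member overall was the 21 nt mt-Tk fragment of bases 1 to 21, the capitals of the sequence above. It had 11760 and 5870 reads in Mdd, against 4684 and 5203 in Control, or 495 and 247 RPM in Mdd against 483 and 310 RPM in Control. The groups overlapped, with a log2 fold change of 0.18 (SE 0.79, adjusted p = 0.9999 with edgeR over all annotated sequences). As a part of mitochondrial tRNA reads it was higher in Mdd, at 13.1% and 12.4%, than in Control, at 9.39% and 6.02%. The fragment of bases 1 to 27 had 284 and 147 RPM in Mdd, against 345 and 286 RPM in Control, and was lower in both Mdd libraries (log2 fold change -0.27, SE 0.72, adjusted p = 0.9999).

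mt-Tn, the tRNA for asparagine, came next in mean level. It stood at 1103 and 536 RPM in Mdd, against 1300 and 1493 RPM in Control, lower in both Mdd libraries (log2 fold change -0.36, SE 0.61, adjusted p = 0.985 in edgeR). mt-Tk was above mt-Tn in 3 libraries and below it in Control replicate 2, so their order lies within the spread.

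Fragments of mt-Tn ended almost wholly in the anticodon. Its GTT anticodon occupies bases 32 to 34, and 92.5% and 92.5% of its reads in Mdd and 90.6% and 91.6% in Control had their last base there. The stop at base 34 took 57.9% and 61.2% in Mdd and 52.4% and 58.5% in Control, and the stop at base 33 took 33.6% and 30.05% in Mdd and 37.1% and 30.96% in Control. Starts were divided between base 1 (56.8% and 51.9% in Mdd, 69.8% and 49.0% in Control) and base 6 (26.8% and 28.4% in Mdd, 17.2% and 30.3% in Control). The stops were thus much alike in the 4 libraries, while Control replicate 1 had more starts at base 1 than the rest.

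The fragment of mt-Tn bases 1 to 33 had 304 and 124 RPM in Mdd, against 455 and 359 RPM in Control, and that of bases 1 to 34 had 284 and 135 RPM in Mdd, against 379 and 328 RPM in Control. Both were lower in both Mdd libraries (log2 fold changes -0.69, SE 0.76, and -0.49, SE 0.73; adjusted p = 0.9999 for each with edgeR). The 29 nt fragment from base 6 to base 34 had 218 and 119 RPM in Mdd, against 174 and 335 RPM in Control, and overlapped.

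mt-Ta, the tRNA for alanine, is the neighbour of mt-Tn on the minus strand. It stood at 424 and 186 RPM in Mdd, against 913 and 967 RPM in Control, and was below mt-Tk and mt-Tn in each library. Its log2 fold change was -1.23 (SE 0.64, adjusted p = 0.623 with edgeR), lower in 2 of 2 Mdd libraries. Its share of mitochondrial tRNA reads was 11.2% and 9.34% in Mdd, against 17.8% and 18.8% in Control. mt-Ta thus lay lower in Mdd both in RPM and within the mitochondrial tRNA reads, and neither difference passed the threshold.

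Fragments of mt-Ta ended before the loop. Fragments from its 5′ end that stopped before the anticodon loop made up 94.1% and 90.7% of its reads in Mdd and 90.5% and 95.7% in Control, and at most 0.191% of its reads in any library had their last base in the TGC anticodon. The 4 leading fragments began at base 1 and stopped at bases 20 to 23. The one of 21 nt had 114 and 33.1 RPM in Mdd, against 208 and 268 RPM in Control (log2 fold change -1.52, SE 0.76, adjusted p = 0.567 in edgeR). The one of 23 nt had 39.8 and 34.9 RPM in Mdd, against 193 and 89.8 RPM in Control (-1.54, SE 0.76, adjusted p = 0.546). All 4 were lower in both Mdd libraries.

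The 12 most read members are 4 fragments each of mt-Tk, mt-Tn and mt-Ta, 20 to 34 nt long, and 10 of them begin at base 1. Between groups, 8 of the 12 were lower in Mdd without overlap in RPM, 0 were higher and 4 overlapped. Fragments of 1 gene share many of their bases, so the 12 are not separate observations. Of the 375 members with enough reads to be tested, 157 (41.9%) were lower in Mdd without overlap and 12 (3.2%) higher. These counts include members read in 1 group only, and one read in Mdd alone can be a member only if Mdd replicate 2 has it. Over all 79093 annotated sequences tested, 30.3% were lower in Mdd without overlap and 7.84% higher. These 3 tRNAs together held 76.1% and 71.2% of the mitochondrial tRNA reads in Mdd and 72.7% and 67.4% in Control.

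**Figure D4:**
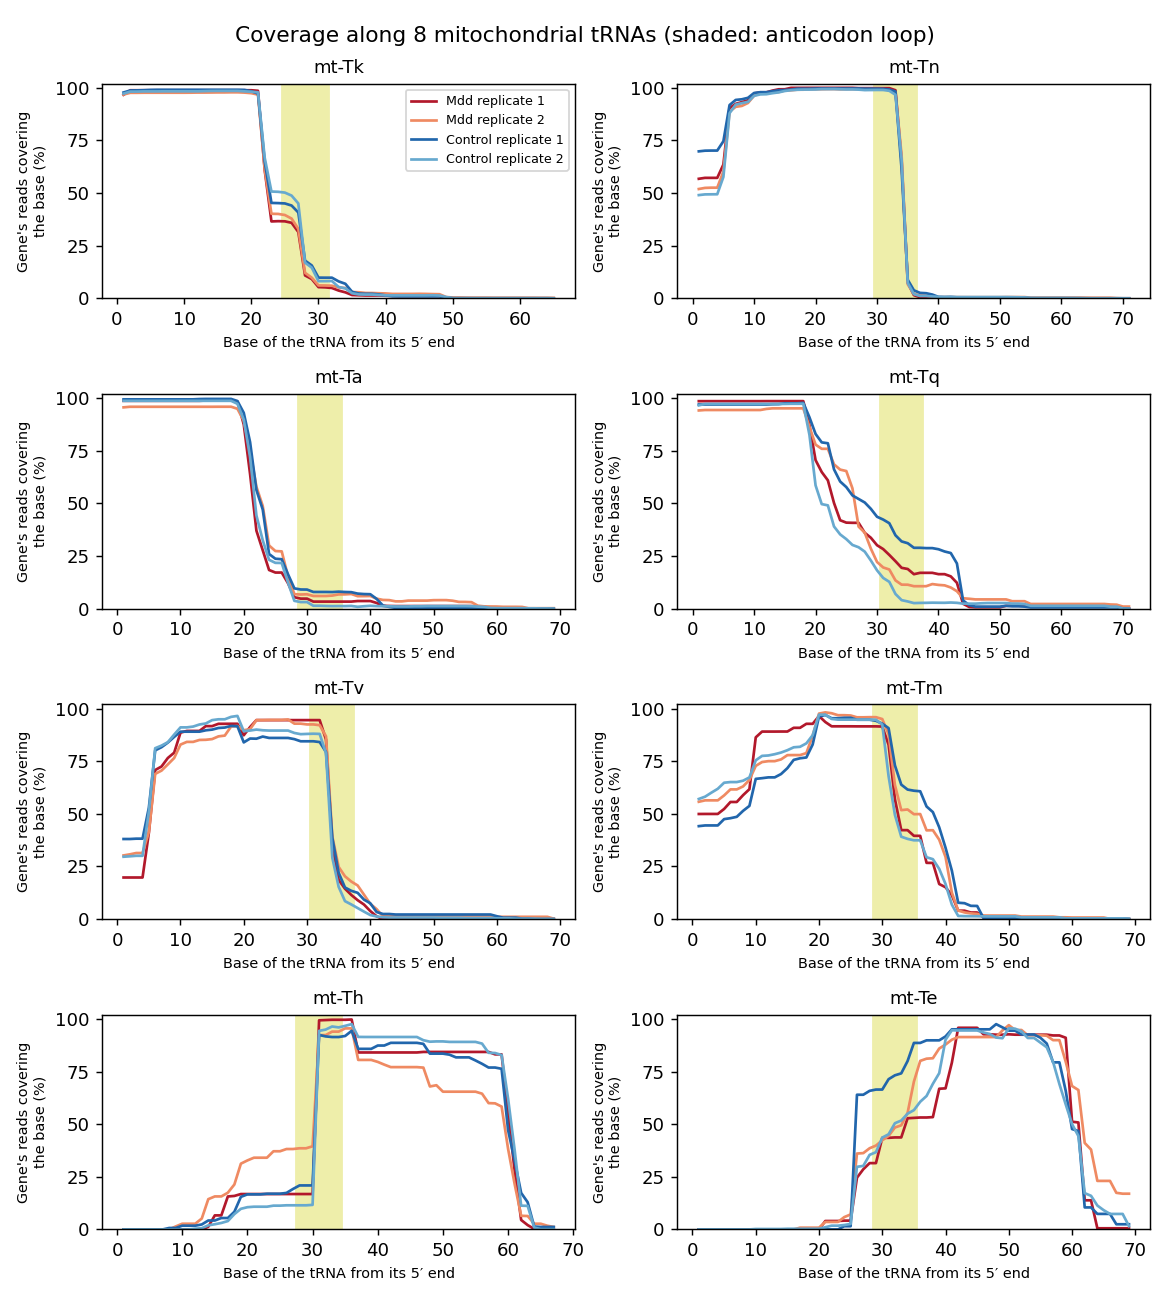
Share of each tRNA's reads that cover each base from its 5′ end, for 8 mitochondrial tRNAs in the 4 libraries, with the anticodon loop shaded. Coverage of mt-Ta ends before the loop and that of mt-Tn inside it, while that of mt-Th steps up at base 31 and that of mt-Te at base 26.

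mt-Tq, the tRNA for glutamine, stood at 240 and 137 RPM in Mdd, against 469 and 322 RPM in Control (log2 fold change -0.66, SE 0.65, adjusted p = 0.939 in edgeR). It lies at chrM:3772-3842 on the minus strand and also gave mainly 5′ fragments that stop before the loop, at 70.3% and 78.0% of its reads in Mdd and 56.9% and 83.8% in Control. A stop at base 43, beyond the loop, varied widely, with 9.95% and 3.34% of its reads in Mdd and 17.6% and 0.371% in Control. Control replicates 1 and 2 marked the ends of that range.

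The valine tRNA mt-Tv stood at 226 and 114 RPM in Mdd, against 253 and 434 RPM in Control (log2 fold change -0.57, SE 0.65, adjusted p = 0.964 in edgeR). Most of its fragments ended in the TAC anticodon, with 70.9% and 66.7% of its reads ending there in Mdd and 65.2% and 70.3% in Control. Its starts differed from those of mt-Tk and mt-Ta, since 80.3% and 68.2% of its reads in Mdd and 62.0% and 70.1% in Control were internal. The most read fragment, of bases 6 to 33, had 39.1 and 20.04 RPM in Mdd, against 30.7 and 75.6 RPM in Control, which overlap.

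The methionine tRNA mt-Tm, which serves both start and internal codons in mitochondria, stood at 190 and 131 RPM in Mdd, against 189 and 249 RPM in Control. The groups overlapped, and the log2 fold change of 0.03 (SE 0.65, adjusted p = 0.998 with edgeR) became -0.40 when scaled by library size alone. Reads ending in its CAT anticodon made up 40.5% and 36.1% in Mdd and 29.2% and 29.9% in Control, higher in both Mdd libraries. mt-Tv and mt-Tm changed places between libraries, so their order lies within the spread.

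The tryptophan tRNA mt-Tw is encoded beside mt-Ta on the other strand and stood at 75.0 and 23.5 RPM in Mdd, against 73.8 and 85.8 RPM in Control, which overlap. Most of its fragments were internal, and 81.2% and 73.7% in Mdd and 63.3% and 65.3% in Control had their last base in the TCA anticodon, chiefly base 33. That anticodon was placed by a loop with 3 of 5 stem positions paired. A leucine tRNA, mt-Tl2, at chrM:11671-11741 on the plus strand, stood at 38.4 and 37.4 RPM in Mdd, against 50.5 and 113 RPM in Control. Most of its reads, 84.5% and 75.1% in Mdd and 71.8% and 64.1% in Control, ran from the 5′ end into the loop.

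Among the 10 leading genes, mt-Th and mt-Te alone had 0 reads that began at the 5′ end in all 4 libraries. The histidine tRNA mt-Th stood at 32.8 and 35.6 RPM in Mdd, against 104 and 178 RPM in Control (log2 fold change -1.49, SE 0.72, adjusted p = 0.623 in edgeR), lower in 2 of 2 Mdd libraries. With all exact matches counted, those that reach the added CCA included, the log2 fold change was -0.02 (adjusted p = 0.989 in edgeR). Both fold changes are scaled by TMM. The RPM of the wider set was not computed, so whether its groups overlap in RPM is not stated here. Of the labelled mt-Th reads, 82.5% and 52.8% in Mdd and 71.5% and 82.7% in Control began at base 31. That is the middle base of the GTG anticodon at bases 30 to 32. Mdd replicate 2 had the smallest part of such starts.

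The most read mt-Th fragment, of bases 31 to 59, had 214 and 152 reads in Mdd, against 256 and 596 reads in Control, or 9.01 and 6.38 RPM in Mdd against 26.4 and 35.6 RPM in Control. Its log2 fold change was -1.67 (SE 0.69, adjusted p = 0.382 with edgeR). The glutamate tRNA mt-Te, at chrM:14071-14139 on the minus strand, stood at 23.1 and 20.04 RPM in Mdd, against 33.5 and 56.7 RPM in Control. Its leading start was base 26, with 20.4% and 28.9% of its reads in Mdd and 62.5% and 27.1% in Control. Control replicate 1 stood apart from the other 3 libraries there.

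Reads that run past the gene into the bases of an added CCA were outside the label. Whether such reads also match the genome beside the gene was not checked. Among sequences of 18 nt or longer, 340 matched a mitochondrial tRNA exactly and ended in 1 or more bases of the CCA, here called CCA-ended, and the files mostly name them piRNA or leave them without annotation. They numbered 3884 and 5971 reads in Mdd, against 1824 and 3081 in Control, or 164 and 251 RPM in Mdd against 188 and 184 RPM in Control. These levels overlapped (exact permutation p = 1), with Mdd replicate 2 the highest, although the same library was the lowest for the labelled fragments.

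mt-Th alone gave 81.7% and 68.4% of the CCA-ended reads in Mdd and 77.8% and 62.9% in Control. Counted by RPM this was 134 and 172 in Mdd and 146 and 116 in Control, so the CCA-ended mt-Th reads outnumbered the labelled mt-Th fragments in both Mdd libraries and in Control replicate 1, but not in Control replicate 2. Its most read CCA-ended sequence is 19 nt long, and a 40 nt one begins at base 31, where the labelled fragments also begin. Capitals mark the added CCA in both.
mt-Th, 19 nt: aacctccttattcaccCCA
mt-Th, 40 nt: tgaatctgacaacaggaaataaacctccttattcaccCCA
The 19 nt sequence, annotated as piRNA, had 26.3 and 28.6 RPM in Mdd, against 25.96 and 19.9 RPM in Control. The 40 nt sequence had 7.62 and 5.12 RPM in Mdd, against 29.9 and 4.30 RPM in Control, where replicate 1 was far above the other 3 libraries. With all exact matches to the 22 genes counted, whatever their label, the share of reads was 0.401% and 0.224% in Mdd, against 0.533% and 0.534% in Control.

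The other 11 genes with members averaged 0.469 to 30.6 RPM over the 4 libraries. The cysteine tRNA mt-Tc, beside mt-Tn on the minus strand, stood at 12.4 and 5.63 RPM in Mdd, against 37.7 and 47.6 RPM in Control. In edgeR its log2 fold change was -1.83 (SE 0.81, unadjusted p = 0.0416, adjusted p = 0.623). It was the only gene of 21 with an unadjusted p under 0.05, beside 4.02% of all names lower and 3.18% higher. A serine tRNA, mt-Ts1, had 1 and 163 reads in Mdd, against 409 and 408 reads in Control (log2 fold change -2.51, SE 1.45, adjusted p = 0.637). Without Mdd replicate 2 it passed, the only gene to do so in any alternative run (log2 fold change -9.25, adjusted p = 0.00013 with edgeR), while in the other single changes its adjusted p was 0.165 to 0.861. That call rests on the 1 labelled read of Mdd replicate 1, whose file lacks the label and holds 24 further reads that match mt-Ts1 exactly and carry no annotation. With members taken by exact match the log2 fold change was -2.42 (adjusted p = 0.657 in edgeR), and without Mdd replicate 2, a setting chosen after seeing the data, it was -4.84 and did not pass (adjusted p = 0.0653). The lowest level was that of the aspartate tRNA mt-Td, with 0 and 12 reads in Mdd and 0 and 23 in Control.

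**Figure D5:**
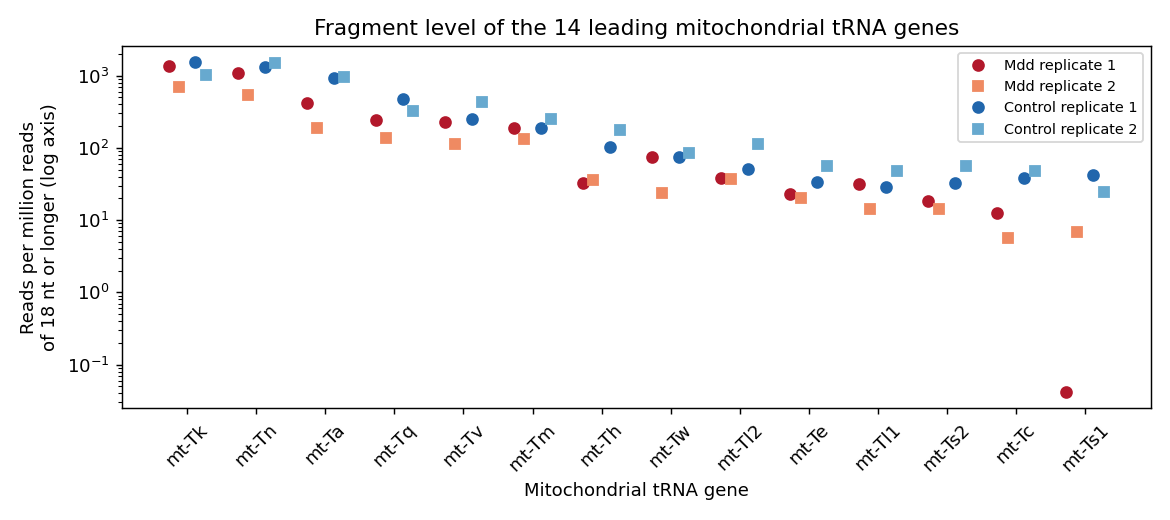
Level of the 14 leading mitochondrial tRNA genes in each library, in reads per 1000000 reads of 18 nt or longer on a log axis, Mdd (red tones) left of Control (blue tones). mt-Ta lies at 424 and 186 RPM in Mdd and 913 and 967 RPM in Control, while mt-Tk overlaps between groups.

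Taken over all 21 genes, 14 were lower in Mdd without overlap in RPM, 0 were higher and 7 overlapped, and the mean RPM was lower in Mdd for each of the 21. Among all 597 annotation names tested, 29.6% were lower in Mdd without overlap and 9.38% higher. The share of all names with a lower mean RPM in Mdd was not computed. The TMM-scaled log2 fold changes were negative for 18 genes and positive for 3, mt-Tk, mt-Tm and the proline tRNA mt-Tp. Over all names 49.9% were negative. The median was -0.66 for the genes, beside 0.00 over all names. Library size alone moves the median of all names to -0.39 and that of the genes to -1.36, with 20 of 21 negative. At an adjusted p under 0.05 edgeR called 0 of 21 genes and 0 of 597 names (0% in each direction), and DESeq2 called 0 of the genes (lowest adjusted p = 0.340), with 2 names higher and 6 lower. The genes are 59 to 75 nt long, and the order of the first 9 is the same per 100 nt of gene, from 1767 RPM per 100 nt for mt-Tk to 84.1 for mt-Tl2.

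By strand, genes on the minus strand, among them mt-Tn, mt-Ta and mt-Tq, gave 47.8% and 45.4% of the mitochondrial tRNA reads in Mdd, against 54.7% and 56.7% in Control (exact permutation p = 0.333, the smallest possible). Genes read from 1 strand nevertheless differed widely in level. mt-Ta, mt-Tn and mt-Tc lie side by side there, and averaged 305 ± 169, 819 ± 401 and 9.004 ± 4.77 RPM in Mdd, against 940 ± 38.6, 1397 ± 137 and 42.7 ± 7.0 RPM in Control (SD, n = 2 each). All 3 averages were lower in Mdd.

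At the level of single sequences, 375 of the 1299 members had enough reads to be tested, and 924 did not. edgeR called 0 of the 375 at an adjusted p under 0.05, as it called 0% of all 79093 annotated sequences in either direction, and DESeq2 called 0 members (lowest adjusted p = 0.0709) while calling 141 sequences higher and 57 lower among all. At an unadjusted p under 0.05 edgeR had 39 of the 375 members lower and 3 higher in Mdd. Over all sequences 12% were lower and 1.26% higher at that p. With both directions together, this was 11.2% of the tested members, beside 13.2% of all sequences, so the members did not exceed the background. Of the 39, 32 had 0 reads in both Mdd libraries. Among the 375, 40 had 0 reads in both Mdd libraries and 6 in both Control libraries. The Control libraries were the smaller ones, and the part of library size in passing the filter, and so in these counts and the median below, was not tested. A member also needs the label in a file other than that of Mdd replicate 1. One with 0 reads in both Control libraries can thus enter only through Mdd replicate 2. The part of this rule in the same counts and median was not tested either. The tested members had a median log2 fold change of -0.65, beside -0.04 over all annotated sequences. These medians moved widely, to -1.04 beside -0.42 with library size only, -0.13 beside 1.61 without Control replicate 2, -1.32 beside -1.27 without Mdd replicate 1 and -4.05 beside -4.36 without Mdd replicate 2. The order turned without Mdd replicate 2 and with no filter on low counts (-2.20 beside -2.49).

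The members of lowest p were rare. On the side lower in Mdd, the isoleucine tRNA fragment mt-Ti of bases 19 to 55 had 0 and 0 reads in Mdd, against 5 and 10 in Control, and the mt-Tn fragment of bases 8 to 35 had 0 and 0 in Mdd, against 5 and 11 in Control (unadjusted p = 0.000898 and 0.0012, adjusted p = 0.182 for both with edgeR). On the other side, the mt-Tm fragment of bases 6 to 40 had 71 and 33 reads in Mdd, against 0 and 0 in Control (unadjusted p = 0.0497, adjusted p = 0.371 with edgeR). A count of 0 allows up to 0.126 RPM in each Mdd library and 0.309 and 0.179 RPM in Control replicates 1 and 2, so differences of this size were near the limit of detection for the first pair of fragments.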

How the data were processed

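Small RNA reads of 2 Mdd and 2 Control libraries were deposited as tables of distinct sequences of 15 to 45 nt. Per the file headers, the authors gave each sequence a raw read count, its length as another number, a mark for a genome match and an annotation. Per the submitters' processing notes, DESeq2 and mm9 were used, with no version. The aligner, the trimming and the sources of annotation were not given in the sources used here. Tables were joined by sequence, and a sequence was annotated by the first of the files that names it.

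Members were matched exactly to GENCODE M21 mitochondrial tRNA transcripts (GRCm38), with and without CCA. No genome sequence was at hand, so nuclear copies of these genes were not searched. Genome matches of the CCA-ended reads were not checked either. Anticodon loops were located as the 7 nt loop that holds the gene's own anticodon and whose 5 stem positions pair best. No minimum number of pairs was set. Among genes with members all 5 positions paired, except 4 in mt-Tl1 and mt-Tt, 3 in mt-Tw and 2 in mt-Ts2. A start or end within 1 nt of the gene's end counted as 5′ or 3′. Levels are reads per 1000000 reads (RPM) of 18 nt or longer. The floor is 3 counts per library.

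Counts of annotated sequences of 18 nt or longer, and counts summed per annotation name with mitochondrial tRNA split by gene, were tested in edgeR 4.0.16 (quasi-likelihood, TMM, filterByExpr, two-sided, Benjamini-Hochberg over the whole table, threshold 0.05) in R 4.3.3. The SE is the log2 fold change over the square root of F. DESeq2 1.42.0 was an alternative. Exact two-sided permutation tests served for shares and lengths (scipy 1.17.1, pandas 2.3.3, Python 3.11.15). The fits were tested on data simulated with large changes in well read features only. How well they find smaller changes or changes in rare fragments was not tested.

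Named are the 12 most read members, the most read one of each of the 10 leading genes and, as none passed, the 3 of lowest p per direction, and the 10 leading genes. mt-Tc, mt-Ts1, mt-Tp and mt-Td were named after their values were seen. The members and lists were chosen with earlier results of these data known.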

Additional observations from a re-analysis of the deposited data

How the results depend on the processing

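Depth limits rare fragments most, since 475 of the 924 untested members sum to under 10 reads. The lower mitochondrial tRNA share in Mdd kept its direction under every alternative run, with differences of -0.316 to -0.135 percentage points when 1 library was left out. mt-tRNA sequences past the threshold stayed at 0 under every alternative, and genes at 0 except 1 without Mdd replicate 2 (range 0 to 1, lower). Among all sequences the counts higher and lower were 141 and 57 with DESeq2, 95 and 10 with no filter, and 0 to 2088 and 0 to 78 with 1 library left out. Deviations of same-numbered replicates correlated at 0.0097 over sequences and -0.037 over names. A correlation over all features cannot show that same-numbered libraries are unrelated. Mitochondrial rRNA followed the number, at 93627 and 96270 RPM in replicate 1 of Mdd and Control, against 39246 and 47056 RPM in replicate 2. The mitochondrial tRNA share did not in Control, at 0.514% and 0.516%. Whether equal numbers share a batch was not tested. The replicate block gave 10 higher and 4 lower sequences, 0 and 4 names and 0 mitochondrial tRNA genes or sequences. Names numbered 0 and 3 with library size only, 2 and 6 with DESeq2, 4 and 8 with no filter, 0 and 11 with a minimum of 15 nt, and up to 17 and 18 with 1 library left out. The mean length difference was 0.81 nt with a minimum of 15 nt and ranged from -0.70 to 0.13 with 1 library left out. In percentage points, the 5′ share difference was 1.91 with a minimum of 15 nt, -4.25 by exact match and -7.27 to 5.48 with 1 library left out, the internal one -2.01, -0.0041 by exact match and -5.57 to 7.10, and the 3′ one 4.26 by exact match and -0.172 to 0.424. Members seen in all libraries left no 3′ fragment, so that value was not computed. log2 fold changes turned for mt-Tk (-0.27 with library size only, -0.30 with the size of all reads, -0.0046 with a mean CPM of at least 10, and -0.33 to 0.56 with 1 library left out) and for mt-Tm (-0.40, -0.44, -0.085 and -0.059 to 0.064 in the same settings). They turned for mt-Tk bases 1 to 21 (-0.11 and -0.096 with the library sizes, -0.12 to 0.51 with 1 library left out) and mt-Tm bases 1 to 31 (-0.25 and -0.26, -0.51 to 0.80). mt-Tn turned to 0.11 with a minimum of 15 nt, and mt-Tl2 bases 1 to 31 to 0.13 with the replicate block. With 1 library left out, that fragment ranged from -0.79 to 1.03, mt-Tw from -0.97 to 0.11, mt-Tk bases 1 to 22 from -0.12 to 0.77, mt-Tn bases 6 to 34 from -0.72 to 0.23 and 5 to 34 from -0.80 to 0.34, and mt-Tv bases 6 to 33 from -1.10 to 0.21. The cause was not tested. A fit with 1 library left out takes the lone library of a group to vary like the other group.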

Other observations

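The tyrosine tRNA mt-Ty had no member, and its exact matches, 0 and 43 reads in Mdd and 6 and 33 in Control, carry the name of a nuclear tyrosine tRNA in the files. Reads ending in TGG were rare in every library, at 0.0392% and 0.0377% of reads of 18 nt or longer in Mdd and 0.0610% and 0.102% in Control, and 1 member ended so.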
